A study of Mus musculus with 6 samples.

Results

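The 10 genes described here, Adipoq, Plin1, Plin4, Cidec, Fabp4, Lep, Retn, Cfd, Car3 and Scd1, are transcripts widely used as markers of adipocytes, and they were read as an index of how much fat each muscle sample held. They were chosen by gene symbol, and all 10 were among the 55416 genes of the deposited count table. RNA sequencing was performed on the tibialis anterior (TA) muscle of male C57BL/6N mice that the labels give as 24 months old, from 3 WT animals and 3 SELENOW KO animals. In the KO line exon 4 of Selenow was deleted with a pair of CRISPR guide RNAs, and the methods name no restriction to a tissue, so a difference in muscle need not arise in the muscle fibre. Strain and sex come from the study's methods, genotype and age from the labels, and how the muscles were cleared of surrounding fat is not given in the sources used here. Values of single libraries are given in the order of replicates 1, 2 and 3. The WT libraries summed to 25351976, 29111213 and 25398186 counts and the KO libraries to 27815342, 27345022 and 27637175.

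Selenow (ENSMUSG00000041571.11), the targeted gene, was counted 6606, 7858 and 6657 times in the WT libraries and 4801, 5205 and 5611 times in the KO libraries. Every KO library lay below every WT library, and the transcript was still abundant in KO muscle. Scaled between libraries, the log2 fold change, KO over WT, was -0.25 (95% interval -0.56 to 0.060, adjusted p = 0.604 from edgeR), which was not called. The counts are per gene, so they show neither the deleted exon itself nor the protein. The paper reports from a Western blot of TA muscle that the SELENOW protein was lost in the KO line.

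A white adipocyte stores triglyceride in a single large lipid droplet and releases hormones, and fat cells appear between the fibres of aged muscle when progenitor cells of the connective tissue turn into adipocytes. The 10 genes cover both sides of this cell. Adipoq, Lep, Retn and Cfd encode the secreted proteins adiponectin, leptin, resistin and adipsin, Plin1, Plin4 and Cidec encode proteins on the surface of the lipid droplet, and Fabp4, Scd1 and Car3 encode a fatty acid carrier, a fatty acid desaturase and a carbonic anhydrase. Some of them also work elsewhere in muscle: Fabp4 is made by the endothelium of capillaries, Car3 is a major soluble enzyme of the muscle fibre, and perilipin 4 is found in fibres.

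The label of the genes as an index of fat was first compared with their levels. Adipoq, Plin1, Cidec, Lep and Retn, the members most restricted to fat cells, had at most 14 counts in any of the 6 libraries. Together these 5 genes were counted 13, 22 and 12 times in the WT libraries and 9, 21 and 6 times in the KO libraries. The groups overlapped, and the sums were small. For WT replicate 1 the exact 95% Poisson interval of the sum ran from 6.92 to 22.2 counts. The intervals of WT replicate 2, 13.8 to 33.3, and KO replicate 3, 2.20 to 13.1, did not overlap, so the sums differed between some libraries beyond counting error. Intervals of this kind cover counting error only. These 5 genes were at or near the floor of detection, apart from Adipoq in KO replicate 2, which alone reached 14 counts. Cfd, the other secreted marker, had 11 to 60 counts in a library. The 10 genes are described below mainly as separate genes, and the indices built from them are not taken as a measure of fat. In bulk tissue, fewer adipocytes and less RNA per adipocyte cannot be told apart.

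Most counts of the 10 genes came from genes that other cells of muscle express. Of the 345613 counts they had over the 6 libraries, Car3 held 88.0%, Plin4 7.12% and Fabp4 4.59%, while Adipoq held 0.00897%. Levels between genes were compared per length, in TPM, which divides each count by the gene's length and scales every library to the same sum. The mean over the 6 libraries was 641 TPM for Car3, which ranked at place 81 of the 31780 genes with a count. Next came Plin4 at 23.4 TPM (16.3 to 36.2 over the libraries) and Fabp4 at 21.2 TPM (15.9 to 31.8), which did not differ beyond their spread. Cfd at 1.27 TPM (0.434 to 2.42) and Scd1 at 0.794 TPM (0.456 to 1.42) also overlapped. Adipoq at 0.133, Retn at 0.0673, Cidec at 0.0577, Plin1 at 0.0201 and Lep at 0.00343 TPM closed the order. Adipoq lay below Scd1 in all 6 libraries, and each of these last 5 genes overlapped its neighbours among them. For scale, the fibre genes Tnnt3 and Acta1, which encode fast troponin T and skeletal actin, had 8226 and 7707 TPM, so the defining genes of the labelled tissue were present.

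**Figure D1:**
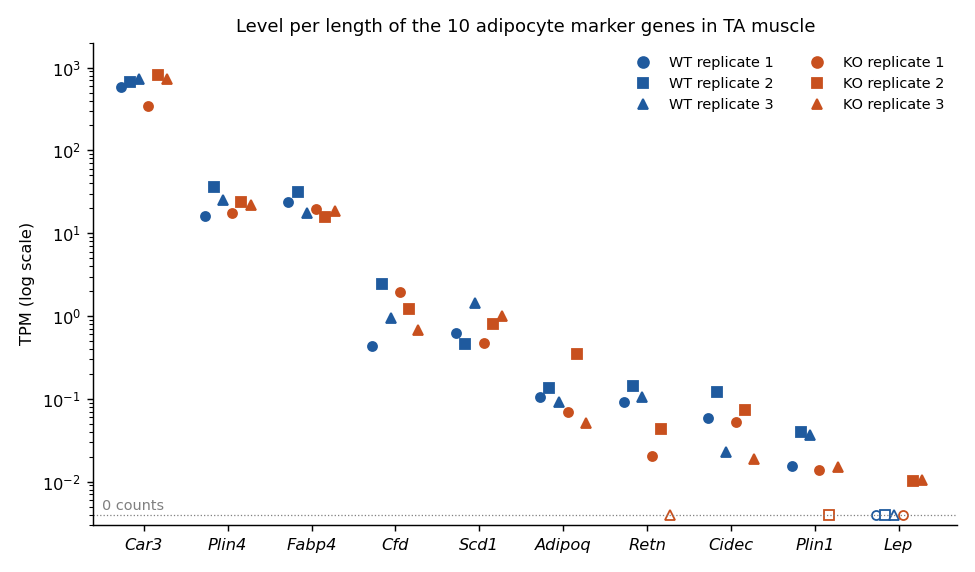
Level of each of the 10 genes in each library, in TPM on a log axis, with WT libraries in blue and KO libraries in orange; open symbols on the dotted line are libraries with 0 counts. Car3 lies between 347 and 804 TPM, Plin4 and Fabp4 between 15.9 and 36.2, and the genes from Adipoq to Lep at no more than 0.347 TPM in any of the 6 libraries.

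The length per gene matters for these levels. The counted length of Fabp4 was 4489 bases, which equals the whole span of the gene in the table, introns included, so the level per length of its spliced mRNA is understated. The GENCODE M21 transcript of Fabp4 with the longest coding sequence, a choice made after seeing the data, is nearly as long, at 4231 bases, so it does not give that level either, and the order of Plin4 and Fabp4 per spliced length was not determined. With transcripts chosen in the same way, Plin4 had 713 and Car3 30199 counts per kilobase as a mean over the libraries.

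Among the hormone genes, Adipoq (ENSMUSG00000022878.6, chr16:22965286-22976778) was counted 4, 5 and 3 times in the WT libraries and 3, 14 and 2 times in the KO libraries. KO replicate 2 held the most and KO replicate 3 the least, so the groups overlapped. Summed over a genotype and scaled to the total, this came to a CPM, the count relative to the library total on a common scale, of 0.150 in WT (exact 95% Poisson interval 0.0776 to 0.262) and 0.229 in KO (0.138 to 0.358). No difference in Adipoq was detectable at this depth. The filter on low counts left Adipoq out of the test, and without the filter its log2 fold change was 0.84 (unadjusted p = 0.284 from edgeR). Lep (ENSMUSG00000059201.13, chr6:29060219-29073876) had 0 counts in the 3 WT libraries and in KO replicate 1, and 1 count in each of the other KO libraries. Leptin mRNA was thus at the floor, where 0 counts in a library are taken to allow up to 3 counts, or 0.103 to 0.118 CPM of the total in the 4 libraries with none. The filter also left out Lep, and without the filter its fitted log2 fold change was 2.74 (unadjusted p = 0.189 from edgeR). This value rests on 2 counts in KO against 0 in WT, so its size has no meaning. Positions here are those of the deposited table, whose build the submitters' processing notes give as GRCm39.

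Retn (ENSMUSG00000012705.17, chr8:3705770-3710110) was counted 4, 6 and 4 times in the WT libraries and 1, 2 and 0 times in the KO libraries. Each KO library was below each WT library (exact permutation test on log2 CPM, two-sided, p = 0.1, the smallest that 3 against 3 libraries allow). The summed counts came to 0.175 CPM of the total in WT (exact 95% Poisson interval 0.0958 to 0.294) and 0.0362 in KO (0.00747 to 0.106). The filter on low counts left Retn out of the test; without the filter its log2 fold change was -1.91 (standard error 1.14, adjusted p = 0.724 from edgeR).

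Cfd (ENSMUSG00000061780.7, chr10:79726687-79728489), whose product adipsin starts the alternative pathway of complement, was the one hormone gene with enough counts to be tested. It was counted 11, 60 and 21 times in the WT libraries and 55, 33 and 18 times in the KO libraries. WT replicate 2 and KO replicate 1 were high and WT replicate 1 was low, and the groups overlapped widely. The log2 fold change, KO over WT, was 0.46 (95% interval -0.85 to 1.78, adjusted p = 0.822 from edgeR). Single libraries moved this value in both directions: without WT replicate 2 it was 1.29 with an unadjusted p of 0.0285 from edgeR, and without KO replicate 1 it was -0.012.

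The lipid droplet genes lay at opposite ends of the order. Plin1 (ENSMUSG00000030546.15, chr7:79369966-79382651), the perilipin that gates lipolysis in fat cells, was counted 2, 5 and 4 times in the WT libraries and 2, 0 and 2 times in the KO libraries. Cidec (ENSMUSG00000030278.12, chr6:113401595-113412721), which drives the fusion of small droplets into large ones, was counted 3, 6 and 1 times in WT and 3, 4 and 1 times in KO. The filter on low counts left out both genes. The WT and KO counts of Plin1 met at 2, and only the scaling put each KO library below each WT library (exact permutation test on log2 CPM, two-sided, p = 0.1). WT replicate 1 and KO replicate 1 then stood at 0.0811 and 0.0806 CPM. The counts of Cidec overlapped. Without the filter their log2 fold changes were -1.19 and -0.12 (unadjusted p = 0.306 and 0.906 from edgeR). Plin4 (ENSMUSG00000002831.15, chr17:56407591-56416803) was instead counted 2841, 6194 and 3766 times in the WT libraries and 3439, 4372 and 3998 times in the KO libraries. After scaling by TMM factors, which holds for all CPM values below, Plin4 stood at 144 ± 42.5 over the WT and 155 ± 20.5 over the KO libraries (SD, n = 3 each). WT replicate 2 was highest and WT replicate 1 lowest, with the KO libraries between them. The log2 fold change was 0.11 (95% interval -0.32 to 0.54, adjusted p = 0.886 from edgeR), and its sign was not stable. It was -0.028 when WT replicate 1 was left out, and 0.38 without WT replicate 2, where the unadjusted p was 0.0469 from edgeR and the fold change under the threshold.

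The promoters of Adipoq and Plin4 are shown because the secreted marker Adipoq had at most 14 counts in a library while the transcript of this droplet protein was abundant. RefSeq promoters of 300 bases, from 250 before to 50 after the start in GRCm38.p6, a build other than that of the count table, were matched for 7 of the 10 genes, with 8 promoters since Cidec has more than 1; Fabp4, Car3 and Scd1 had none. Both strands were searched for the TATA box TATAAA, the CCAAT box, the GC box GGGCGG and the nuclear receptor half-site AGGTCA, and capitals mark each match. The Adipoq promoter lies at chr16:23146286-23146585 on the plus strand and that of Plin4 at chr17:56109733-56110032 on the minus strand, each written 5′ to 3′.
Adipoq: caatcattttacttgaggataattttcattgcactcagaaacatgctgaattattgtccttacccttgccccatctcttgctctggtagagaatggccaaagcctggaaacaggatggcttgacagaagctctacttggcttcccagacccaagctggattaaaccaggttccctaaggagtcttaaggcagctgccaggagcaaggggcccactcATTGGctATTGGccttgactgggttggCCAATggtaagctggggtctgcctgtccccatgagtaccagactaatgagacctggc
Plin4: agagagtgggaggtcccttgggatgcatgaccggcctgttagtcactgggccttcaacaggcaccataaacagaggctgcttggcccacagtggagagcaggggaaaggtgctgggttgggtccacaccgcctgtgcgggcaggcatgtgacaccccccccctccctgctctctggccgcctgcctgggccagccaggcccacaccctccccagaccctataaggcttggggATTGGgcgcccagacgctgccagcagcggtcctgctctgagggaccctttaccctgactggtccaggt
All capitals are CCAAT or its reverse complement, with 3 matches in Adipoq, which begin 34, 27 and 7 bases before the start, and 1 match in Plin4, which begins 18 bases before it. Of 32851 promoters of this length, 37.4% hold CCAAT, 35.7% GGGCGG, 16.3% AGGTCA and 13.6% TATAAA. Among the 8 promoters of these genes, 2 held CCAAT, 1, that of Lep, held GGGCGG, and 0 held TATAAA or AGGTCA. A match describes the letters of the window and does not show that a factor binds.

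Among the genes of fatty acid handling, Fabp4 (ENSMUSG00000062515.4, chr3:10269148-10273636) was counted 2968, 3846 and 1858 times in the WT libraries and 2706, 2087 and 2401 times in the KO libraries. Its CPM was 120, 120 and 61.2 in the WT libraries and 109, 85.1 and 89.8 in the KO libraries. WT replicate 3 stood lowest and the KO libraries lay inside the WT range. The log2 fold change was -0.086 (95% interval -0.64 to 0.47, adjusted p = 0.935 from edgeR), and it turned to 0.065 without WT replicate 1 and 0.062 without WT replicate 2. Of the 13 endothelial markers, all tested, 12 were higher and 1 lower in KO after TMM scaling and 2 were higher in mean TPM, edgeR and DESeq2 called 0, and their median log2 fold change was 0.29 against -0.0042 over all tested genes. Their summed CPM was 169, 140 and 105 in the WT libraries and 161, 180 and 160 in the KO libraries, with Cdh5, the adhesion protein of endothelial junctions, the highest per length and no marker at 0. Cdh5 and Flt1, a receptor of vascular growth factor, had the largest differences, at 0.50 and 0.41 (adjusted p = 0.340 and 0.338 from edgeR), with each KO library above each WT library and a fold change under the threshold. WT replicate 3 was lowest in both Fabp4 and the endothelial sum, whereas KO replicate 2 was highest in that sum and next to lowest in Fabp4. The part of these markers in the Fabp4 counts was not tested.

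Scd1 (ENSMUSG00000037071.4, chr19:44382894-44396318), which makes monounsaturated fatty acids, was counted 83, 60 and 165 times in the WT libraries and 72, 115 and 140 times in the KO libraries. WT replicate 3 was highest and WT replicate 2 lowest, so WT enclosed KO. The log2 fold change was 0.27 (95% interval -0.62 to 1.15, adjusted p = 0.850 from edgeR). It was 0.72 with an unadjusted p of 0.0496 without WT replicate 3, and was -0.042 without WT replicate 2. Its close relative Scd2 had a log2 difference of 0.31 (adjusted p = 0.896 from edgeR).

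Car3 (ENSMUSG00000027559.6, chr3:14928572-14937583) was by far the most abundant of the 10 genes. It stood at 1846, 1598 and 1636 CPM in the WT libraries and at 1240, 2744 and 2230 CPM in the KO libraries. The WT libraries were close together, whereas KO replicate 1 lay below and the other KO libraries above all of them. The spread, as SD over the mean, was 7.88% in WT and 36.9% in KO, so the log2 fold change of 0.29 (95% interval -0.26 to 0.85, adjusted p = 0.734 from edgeR) did not exceed the spread between replicates. Single KO libraries moved its size in both directions. Without KO replicate 1 the log2 fold change was 0.56 with an unadjusted p of 0.0123 from edgeR and a fold change under the threshold. Without KO replicate 2 it was 0.038.

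Together, 5 of the 10 genes passed the filter on low counts (Plin4, Fabp4, Cfd, Car3 and Scd1) and 0 of these 5 were called between genotypes, where a call is an unadjusted p under 0.05 with a fold change over 1.5 or under 0.7. Over all 15623 tested genes edgeR called 5.35%, with 2.21% higher and 3.14% lower in KO. At an adjusted p under 0.05 the share was 0%, since edgeR gave 0 genes; 1545 genes had an unadjusted p under 0.05, and DESeq2 gave 45 genes with an adjusted p under 0.05. In none of the 5 tested genes did the WT and KO libraries separate, which they did for 15.4% of all tested genes. Of the genes that the filter left out, Retn and Plin1 had each scaled KO library below each WT library, at 0 to 6 counts in a library. The 15.4% covers tested genes only. Of the 5 tested genes, 4 had a higher and 1 a lower mean in KO, and the median log2 fold change was 0.27. This tally depends on the scaling. In mean TPM, which uses no TMM factors, Plin4 went from 25.8 in WT to 21 in KO, Fabp4 from 24.4 to 18.0, Car3 from 658 to 625 and Scd1 from 0.830 to 0.758, all lower, and Cfd from 1.27 to 1.28. Over all tested genes 10.7% had the higher mean TPM in KO, against 49.4% with a log2 fold change above 0 after TMM. Tallies of direction in the lists are given after TMM, with the number higher in mean TPM beside some of them. Mitochondrially encoded genes held 37.3, 29.1 and 29.8% of the counts in the WT libraries and 40.3, 38.2 and 35.4% in the KO libraries, and their part in this gap was not tested. The TMM factors were 0.974, 1.1 and 1.2 in the WT libraries and 0.893, 0.898 and 0.968 in the KO libraries. DESeq2 on the same genes also called 0 of the 5, against 4.94% of all tested genes, 293 higher and 478 lower.

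The 5 tested genes did not move together over the libraries. In KO replicate 1, Cfd was 1.08 above its own mean on the log2 scale while Car3 was -0.56 from its mean, and in WT replicate 2 Cfd was at 0.84 and Scd1 at -0.96. Pearson's r between pairs of the 5 genes, over 6 libraries that share their scaling, ran from -0.80 for Fabp4 and Scd1 to 0.67 for Plin4 and Cfd, and is given as a description. The index built as the mean of the centred log2 CPM of the 5 genes was -0.25, 0.082 and -0.21 in the WT libraries and 0.059, 0.29 and 0.031 in the KO libraries. Its groups overlapped, with a difference between genotypes of 0.25 (KO minus WT) against a pooled SD within a genotype of 0.16. Built instead over Adipoq, Plin1, Cidec, Cfd, Lep and Retn, the index was -0.060, 0.49 and -0.21 in WT and 0.023, 0.29 and -0.54 in KO. The difference then had the opposite sign, at -0.15, and was smaller than the spread between replicates, a pooled SD of 0.40. The restricted index rests mostly on genes with few counts, and no direction was established for it.

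**Figure D2:**
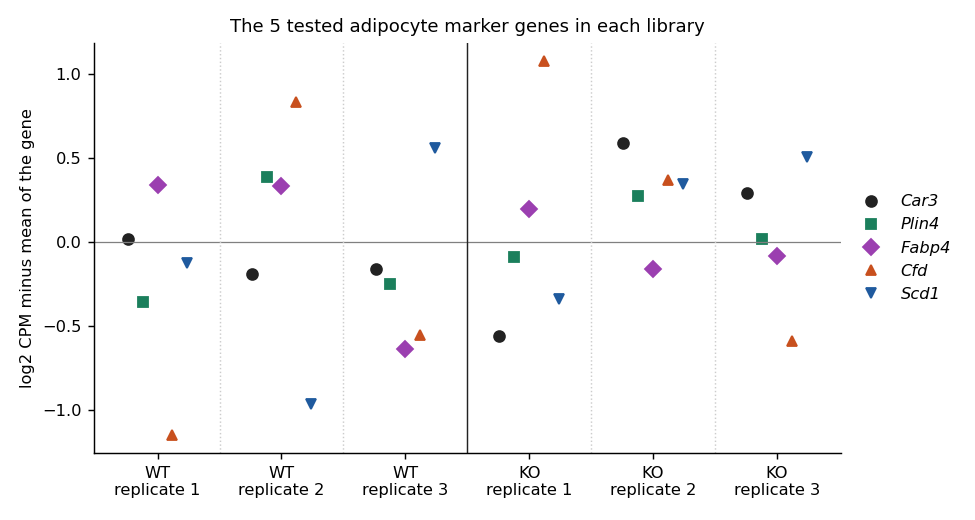
Centred log2 CPM of the 5 tested genes in each library, where 0 is the mean of the gene over the 6 libraries and the black line parts WT from KO. Cfd ranges from -1.14 in WT replicate 1 to 1.08 in KO replicate 1, and the 5 genes take different orders in different libraries.

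With the genotypes pooled, the 5 tested genes varied more between replicates than most genes of like abundance. The pooled SD over the mean within a genotype was 22.8% for Plin4, 25.7% for Fabp4, 26.7% for Car3, 40.9% for Scd1 and 66.2% for Cfd. Among tested genes with a mean count within 2-fold of theirs, 89.9%, 93.6%, 88.9%, 95.7% and 95.8% were less variable. The spread differed by genotype. It was 29.5% in WT and 13.2% in KO for Plin4, and 33.8% and 13.4% for Fabp4. For Car3 it was 7.88% and 36.9%, for Scd1 50.4% and 28.6%, and for Cfd 75.8% and 54.8%. The median pooled value of genes of like count was 12.7% for Plin4, 12.0% for Fabp4 and 13.2% for Car3. For Scd1 and Cfd it was 16.7% and 27.0%.

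Genes whose libraries ranked like those of Adipoq were not sought, because Adipoq had too few counts, and Car3, Plin4 and Fabp4 took its place after the data were seen. Likeness was Pearson's r of log2 CPM over the 6 libraries, which share their depth and scaling, among 4456 tested genes with a mean of at least 10 counts and a range of at least 1 on the log2 scale. Closest to Car3 were Lurap1l, with a mean count of 12.2 (r = 0.996), and Gpd1 (r = 0.989, Spearman's rho = 1). Gpd1 encodes the glycerol phosphate dehydrogenase of the cytosol, an enzyme of fat cells and of fast muscle fibres, and was the most abundant per length of 32 further adipocyte genes. It stood at 205, 194 and 200 CPM in the WT libraries and at 160, 320 and 259 CPM in the KO libraries. Gpd1 was picked for its r over these same libraries, so the likeness is a description of that choice. Closest to Plin4 was AC166575.1, a gene without a name of its own and with a mean count of 26 (r = 0.988). Among its 10 closest genes the better counted, picked after their values were seen, were Slc7a2, a transporter of cationic amino acids (r = 0.959), Zcchc24 (r = 0.954) and Chac1, which degrades glutathione (r = 0.952). For Fabp4 the first was Mutyh, a DNA repair glycosylase with a mean count of 20.8 (r = 0.984). With 6 libraries and 4456 candidates, values of r over 0.95 were reached by 13 genes for Car3, 9 for Plin4 and 8 for Fabp4.

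**Figure D3:**
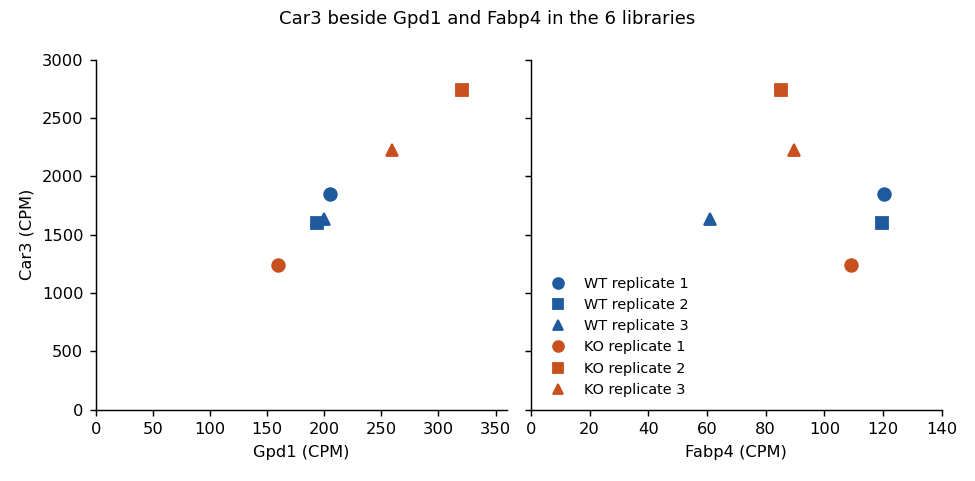
Car3 (CPM, vertical axis) against Gpd1 (left) and Fabp4 (right), with 1 point for each library. Car3 and Gpd1, which was picked for its r with Car3, fall along 1 line from KO replicate 1 to KO replicate 2, and Fabp4, which was not picked in this way, is shown beside it.

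The relatives of the 10 genes that were tested numbered 17 of 31, with 7 higher and 10 lower in KO after TMM, 3 higher in mean TPM, and a median log2 fold change of -0.22. Of these, 1 was called higher and 1 lower, together 11.8% of the list against 5.35% of all tested genes. Car4, the membrane carbonic anhydrase of capillaries and fibres, stood at 2.76, 2.65 and 1.75 CPM in the WT libraries and at 3.91, 5.54 and 4.79 CPM in the KO libraries. Each KO library was above each WT library, and the fold change of 1.99 (95% interval on the log2 scale from 0.49, unadjusted p = 0.000992, adjusted p = 0.275 from edgeR) was called in all 6 fits that left out 1 library. Retnla, the resistin-like protein of alternatively activated macrophages, stood at 0.771, 0.996 and 1.15 CPM in WT and 0.443, 0.448 and 0.524 CPM in KO. Each KO library was below each WT library, with a log2 difference of -1.04 (unadjusted p = 0.0161, adjusted p = 0.405 from edgeR). Without WT replicate 3 the call was lost at a log2 difference of -0.90 (unadjusted p = 0.0631 from edgeR).

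Among the perilipins of muscle, Plin2, Plin3 and Plin5 had log2 fold changes of -0.39, -0.22 and -0.52 (adjusted p = 0.551, 0.653 and 0.641 from edgeR), with overlapping libraries. Fabp3, the fatty acid carrier of muscle fibres, had 167 TPM and a log2 difference of -0.44 (95% interval -1.28 to 0.39). Fabp5 had -0.18. The ratio of Fabp4 to Fabp3 counts ran from 0.417 in WT replicate 3 to 1.3 in KO replicate 2. The other carbonic anhydrases tested had log2 fold changes of -0.61 for Car9, -0.40 for Car15, -0.32 for Car14, -0.24 for Car2, 0.12 for Car11, 0.16 for Car7, 0.22 for Car8 and 0.47 for Car13. Cidea, the relative of Cidec in brown fat, had 0.35. None of these was called.

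**Figure D4:**
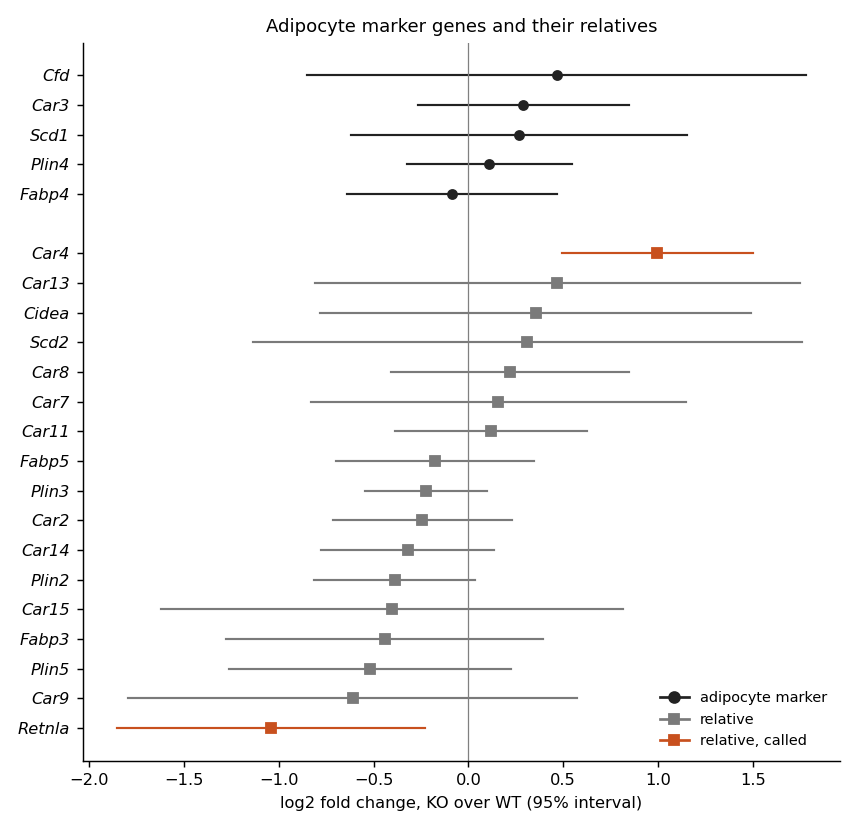
Log2 fold change, KO over WT, with its 95% interval for the 5 tested adipocyte marker genes (circles) and their 17 tested relatives (squares), with called genes in orange. The intervals of the 5 markers all include 0, and those of Car4 and Retnla do not.

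Of 32 further adipocyte genes, 23 were tested, with 14 higher and 9 lower in KO after TMM, 6 higher in mean TPM, and a median log2 fold change of 0.15. The others were sparse, among them Adrb3, the adrenergic receptor of fat cells, with 0 to 2 counts in a library. Pparg and Cebpa, the transcription factors that direct adipocyte differentiation, had 16 to 44 and 26 to 45 counts in a library. One gene was called, 4.35% of the list against 5.35% of all tested genes. That gene, Sncg, gamma-synuclein, was counted 36, 20 and 18 times in the WT libraries and 40 times in each KO library. The KO libraries lay above the WT libraries, and the log2 fold change was 0.84 (unadjusted p = 0.0428, adjusted p = 0.491 from edgeR). This call held in 1 of the 6 fits that left out 1 library, which gave log2 fold changes of 0.62 to 1.37 with unadjusted p up to 0.139. It was lost in DESeq2 at a log2 fold change of 0.84 (unadjusted p = 0.0529).

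Of 13 lipid droplet proteins, 12 were tested, with 4 higher and 8 lower in KO after TMM, 1 higher in mean TPM, and a median log2 fold change of -0.15. By edgeR 0 were called, and by DESeq2 1 was called lower, G0s2. G0s2, an inhibitor of triglyceride lipase, had the largest difference, at 18.0, 5.45 and 5.73 CPM in WT and 4.47, 3.55 and 4.79 CPM in the KO libraries. The libraries separated, with WT replicate 1 far above the rest, and the log2 fold change was -1.17 (unadjusted p = 0.0866, adjusted p = 0.577 from edgeR), or -1.18 by DESeq2 (unadjusted p = 0.0434, adjusted p = 0.579). Fitm1 and Fitm2, which help form droplets and had the highest levels per length of this list at 49.6 and 12.3 TPM, had log2 fold changes of -0.15 and -0.26.

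Of 21 genes of fatty acid and triglyceride synthesis, 17 were tested, with 12 higher and 5 lower in KO after TMM and 3 higher in mean TPM. The 1 called, 5.88% of the list against 5.35% of all tested genes, was Fasn, fatty acid synthase. Fasn was counted 54, 58 and 53 times in WT and 54, 60 and 119 times in the KO libraries. KO replicate 3 alone was high, and the groups overlapped. The log2 fold change was 0.67 (unadjusted p = 0.0390, adjusted p = 0.487 from edgeR), and 0.28 without KO replicate 3 (unadjusted p = 0.328). The call was also lost without WT replicate 2 or 3, at log2 fold changes of 0.63 and 0.60 (unadjusted p = 0.0878 and 0.0973 from edgeR). With the replicate numbers as a block it was lost at a log2 fold change of 0.61 (unadjusted p = 0.0614 from edgeR). Srebf1, the transcription factor of lipid synthesis, singled out after its values were seen, was also highest in this library, with 499 counts against 104 to 264 in the others.

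Of 12 thermogenic adipocyte genes, 8 were tested, with 5 higher and 3 lower in KO after TMM, and 3 higher and 5 lower in mean TPM. By edgeR 1 was called higher and 1 lower, or 25% of the 8 against 5.35% of all tested genes. Ucp1, the uncoupling protein that defines brown fat, had 2 counts in KO replicate 2 and 0 in the other 5 libraries. Cox7a1, a subunit of cytochrome c oxidase that muscle also expresses, stood at 68.2 ± 21.7 CPM in WT and 47.0 ± 4.24 over the KO libraries (SD, n = 3 each), with the KO libraries below the WT libraries. Its log2 fold change of -0.54 (unadjusted p = 0.0214, adjusted p = 0.434 from edgeR) was called lower, and was -0.25 without WT replicate 1. Without KO replicate 2 or 3 the call was lost at log2 fold changes of -0.47 and -0.53 (unadjusted p = 0.0706 and 0.0595 from edgeR). With the replicate block the log2 fold change was -0.50, with an unadjusted p of 0.00880 from edgeR and a fold change short of the threshold. Prdm16, a regulator of brown fat, was counted 27, 25 and 31 times in WT and 40, 37 and 39 times in KO. Its log2 difference of 0.66 was called higher (unadjusted p = 0.0426, adjusted p = 0.491 from edgeR). The call held in 1 of the 6 fits with a library left out, which gave 0.53 to 0.76 with unadjusted p up to 0.124. DESeq2 did not call Prdm16, at 0.67 (unadjusted p = 0.0821). With the replicate block Prdm16 kept a log2 fold change of 0.67 and was not called (unadjusted p = 0.0612 from edgeR), nor was it without the filter on low counts (unadjusted p = 0.0691 from edgeR).

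Of 13 genes listed as adipokine receptors and alternative complement, with the insulin receptor gene Insr among them, 12 were tested. After TMM 7 were higher and 5 lower in KO, and 0 were higher in mean TPM. By edgeR and DESeq2 0 were called, and the median log2 fold change was 0.0097. The adiponectin receptors Adipor1 and Adipor2 had 21.8 and 10.7 TPM and log2 fold changes of 0.033 and 0.037 (95% intervals -0.29 to 0.36 and -0.25 to 0.32). Lepr, the leptin receptor, was counted 17, 20 and 17 times in WT and 8, 13 and 9 times in the KO libraries. The libraries separated, with a log2 difference of -0.65 (adjusted p = 0.649 from edgeR). C3ar1, a complement receptor of leukocytes, ranged from 9 to 64 counts in WT and from 5 to 23 in KO, with overlapping libraries and a log2 difference of -1.33 (adjusted p = 0.637 from edgeR). C5ar2, a receptor of complement C5a and the 1 gene of this list too sparse to be tested, was counted 4, 5 and 5 times in the WT libraries and 0 times in each KO library. It was singled out after its values were seen.

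Fibro-adipogenic progenitors are the connective tissue cells from which fat cells of muscle arise. Of 19 such genes, 17 were found in the table and 14 were tested, with 2 higher and 12 lower in KO, 0 called by edgeR or DESeq2 and a median log2 fold change of -0.24. Their summed CPM was 180, 142 and 267 in the WT libraries and 206, 125 and 182 in the KO libraries, so the groups overlapped and WT replicate 3 was highest. Gsn and Dcn, the most abundant per length, had log2 fold changes of -0.13 and -0.16, and Mfap5 and Lum had -0.67 and -0.63 (adjusted p = 0.743 and 0.781 from edgeR).

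Other cell types of the muscle also differed between libraries. Of the 16 fibre genes 10 were higher and 6 lower in KO after TMM, 1 was higher in mean TPM and edgeR called 0, with a summed CPM of 98777, 128880 and 100703 in WT and 109156, 126818 and 119828 in the KO libraries. The developmental and slow fibre genes Tnni1 and Myh3 had log2 fold changes of -2.49 and -1.63 with overlapping libraries (adjusted p = 0.593 and 0.613 from edgeR), and DESeq2 called both lower (unadjusted p = 0.0233 and 0.0425). Of 11 tested leukocyte markers 3 were higher and 8 lower, with a median log2 fold change of -0.74 and Cd68 of macrophages the most abundant per length. By edgeR 27.3% of the 11 were called, against 5.35% of all tested genes. Cd3e of T cells was called higher at 1.16, and Csf1r of macrophages and S100a9 of neutrophils were called lower at -0.69 and -1.64 (adjusted p = 0.316, 0.470 and 0.416 from edgeR). DESeq2 called these and also Ptprc of leukocytes and C1qb of macrophages lower, at -1.21 and -1.28 (unadjusted p = 0.0272 and 0.0166), with overlapping libraries. The summed CPM of the list was 20.4, 17.8 and 42.0 in WT and 24.5, 18.8 and 16.6 in KO, with WT replicate 3 high, and Csf1r was -0.38 and not called without that library, nor at -0.47 without KO replicate 2. S100a9 was -1.20 and not called without WT replicate 1, nor at -1.23 without KO replicate 3.

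Of 7 tested smooth muscle and pericyte markers, 6 were higher and 1 lower in KO after TMM, and 4 higher and 3 lower in mean TPM. By edgeR 2 were called higher, or 28.6% of the 7 against 2.21% of all tested genes. They were Rgs5 at a log2 fold change of 0.61 and Myh11 at 0.83 (adjusted p = 0.299 and 0.330 from edgeR). The summed CPM of this list was 192, 151 and 164 in WT and 239, 288 and 220 in KO, of which Rgs5 held 80.1%. Each KO library was above each WT library, but without Rgs5 the groups overlapped, at 41.9, 28.7 and 39.0 CPM in WT and 48.2, 51.4 and 40.8 CPM in KO. The fold change of Rgs5 fell under the threshold without WT replicate 2 or 3 or KO replicate 2, at log2 values of 0.56, 0.57 and 0.48. Of 5 tested Schwann cell markers 4 were higher and 0 called by edgeR or DESeq2, with summed CPM of 11.1, 6.72 and 12.9 in WT and 11.0, 9.25 and 16.0 in KO. Of 5 tested red blood cell genes all 5 were lower and 2 were called, or 40% against 5.35% of all tested genes. These were the beta globin genes Hbb-bs and Hbb-bt, at -0.68 and -0.69 (adjusted p = 0.299 and 0.324 from edgeR). Without WT replicate 2 both calls were lost, at -0.45 and -0.43, with fold changes short of the threshold. The red blood cell genes summed to 205, 293 and 174 CPM in WT and 155, 165 and 142 CPM in KO. These near-identical globins can share reads. Of 7 epidermis markers, Krt5, Krt14 and Krt1 of the keratinocyte had 0 counts in all 6 libraries and 2 were tested, Krt10 and Sbsn. Sbsn was counted 13, 23 and 29 times in WT and 1, 0 and 1 times in KO. It was called lower (adjusted p = 0.0956 from edgeR), or 50% of the 2 tested, against 5.35% of all tested genes. The list summed to at most 1.58 CPM in a library. The part of these cell types in the counts of the 10 genes was not tested.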

How the data were processed

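RNA from TA muscle of 3 WT and 3 SELENOW KO mice was sequenced as paired-end reads. HISAT2 aligned the reads, featureCounts assigned them to genes, and the authors deposited the raw count of each gene, not normalized, beside its length. The study's methods name GRCm38 and the submitters' processing notes GRCm39; handling of strand and of reads with several positions is not given in the sources used here. One WT column carries no number and was read as replicate 1, since the other columns name replicates 2 and 3. Its counts also equal those that the study itself gives for WT1. Of 55416 Ensembl identifiers, 52083 had a symbol. Genes were kept with filterByExpr, scaled by TMM and fitted with the quasi-likelihood test of edgeR (version 4.0.16, R 4.3.3, robust), with Benjamini-Hochberg adjustment over 15623 genes. Log2 CPM used a prior count of 1. Permutation tests were exact. The steps were tested on simulated data. Counts of replicates differed beyond sampling noise (chi-square over its degrees of freedom, 19.3 to 70.5). Named were the 10 genes, Selenow, tested relatives and, in each list, the called genes or else the 2 largest differences and the 2 highest levels per length; others were chosen after their values were seen. The members and lists were chosen with earlier results of these data known. The alternatives were DESeq2 (version 1.42.0), its size factors in edgeR, other filters, fit without robust estimation, the replicate block, no mitochondrially encoded genes, the restricted index as a covariate, other prior counts, a log2 threshold of 1 and leaving out each library.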

Additional observations from a re-analysis of the deposited data

How the results depend on the processing

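Without the filter on low counts 1780 genes were called in place of 836; the p of genes tested in both fits also changed, and the cause was not tested. A threshold of 1 on the log2 scale gave 315. The other alternatives that kept all 6 libraries gave 666 to 919 calls, with 850 when the restricted index was a covariate. Leaving out each library in turn gave 814 to 1072 calls. The count of adipocyte marker genes called was 0 to 1 with a library left out (Cfd without WT replicate 2, Scd1 without WT replicate 3) and 0 in the other alternatives, among them the restricted index as a covariate, added for this count after seeing the data. Cfd is itself part of the restricted index, so the fit with this covariate cannot decide its call. There the log2 fold change of Cfd was 0.88 (unadjusted p = 0.0634 from edgeR). The log2 fold changes with a library left out ran from -0.028 to 0.38 for Plin4, -0.34 to 0.065 for Fabp4, -0.012 to 1.29 for Cfd and -0.042 to 0.72 for Scd1, changing sign, and from 0.038 to 0.56 for Car3, which kept its sign. The index difference was 0.17 to 0.36 with a library left out and -0.15 over the restricted members; the cause was not tested. With the replicate block 890 genes and 0 adipocyte marker genes were called, and the calls of Fasn, Cox7a1 and Prdm16 were lost at log2 fold changes of 0.61, -0.50 and 0.67. The same-number correlations of the libraries' deviations were 0.060, 0.044 and -0.074, so the numbers were not taken as pairs, and not every library correlated best with its own number. Leaving out mitochondrially encoded genes moved the median log2 fold change of all genes by 0.0025. Depth limits Adipoq, Plin1, Cidec, Lep and Retn most, since a total of 2 to 31 counts over 6 libraries cannot show modest differences.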
